A study of Mus musculus with 4 samples.

Results

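The genes that write and erase DNA methylation were followed in RNA-seq libraries of mouse embryonic stem (ES) cells with wild-type Morc3 and of Morc3 rescue clones. The 10 genes were chosen by symbol: the DNA methyltransferases *Dnmt1*, *Dnmt3a* and *Dnmt3b*, the cofactor *Dnmt3l*, *Uhrf1*, the dioxygenases *Tet1*, *Tet2* and *Tet3*, the glycosylase *Tdg* and the regulator *Prdm14*. All 10 are among the 24054 genes of the deposited tables, and 9 of them are among the 13267 genes with enough counts to be tested. *Tdg* was too low to test.

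The wild-type library came from the ES cell line wt26. The 3 rescue clones, T131-3C, T131-3D and T131-3M, were each isolated after a PiggyBac vector with Morc3 had been transfected into the Morc3 ko line KO27-2 and selected with puromycin. KO27-2 is itself 1 clone derived from wt26, so all 3 rescue clones share its history and the wild-type library does not. All cells grew without feeders on gelatin in serum and LIF, a medium in which ES cells keep methylated DNA. No library of the ko line was analysed here, and with 1 wild-type library the genotype, the cloning and the individual culture cannot be told apart.

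DNA methylation in mammals is the addition of a methyl group to cytosine, mostly where a G follows (CG). Dnmt3a and Dnmt3b place it on unmethylated DNA (de novo methylation), helped by Dnmt3l, which resembles them but has no catalytic activity. Uhrf1 recognises DNA that carries the mark on one strand after replication and recruits Dnmt1, which copies it to the other strand (maintenance). Tet enzymes oxidise the methyl group, and Tdg removes further oxidised forms so that repair can restore an unmodified cytosine. Prdm14 is known in ES cells to repress the de novo genes. RNA levels of these genes do not measure DNA methylation, and no methylation data were analysed here.

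Read pairs counted on genes numbered 18789457 for wild type and 13620914 to 15479190 for the clones. The unmapped share was 14.5% for wild type and 21.0% to 23.0% for the clones. As a check of the labels, *Morc3* had 161 CPM in wild type (CPM, the counts brought to the same library size with the TMM factors) and 655, 496.5 and 609 CPM in clones 3C, 3D and 3M, so every clone was above wild type. The 10 ES cell markers summed to 4549 CPM in wild type and between 4657 and 4736 CPM in the clones. Of the 7 fibroblast markers, *Col3a1*, *Lum* and *Dcn* had no count in any library, and the sum was 32.9 CPM in wild type and 45.0, 20.3 and 23.4 CPM in clones 3C, 3D and 3M, mostly from *Thy1*. The clones also differed from wild type over whole chromosomes. The median log2 difference from wild type was 0.34, 0.34 and 0.35 over 465 genes of chromosome 14 in clones 3C, 3D and 3M, and 0.48, 0.03 and 0.48 over 512 genes of chromosome 13. None of the 10 genes lies on chromosome 13 or 14, and on chromosomes 1, 2, 10 and 12, which hold *Prdm14* and the de novo genes, these medians were between -0.03 and 0.01.

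The sequences before transcript starts of the de novo genes are shown because these were the 3 genes of the 10 that were lower in every clone. *Dnmt3a* lies at chr12:3801559-3914443, *Dnmt3b* at chr2:153649411-153687730 and *Dnmt3l* at chr10:78042287-78063622, all on the plus strand of mm10 (GRCm38). The windows are those bases before a RefSeq (GRCm38.p6) transcript start that overlap no annotated exon, printed 5′ to 3′ with each CG in capitals. The *Dnmt3b* window is printed up to the RefSeq gene start. The *Dnmt3a* and *Dnmt3l* windows lie inside the gene spans given.
Dnmt3a chr12:3806730-3806979: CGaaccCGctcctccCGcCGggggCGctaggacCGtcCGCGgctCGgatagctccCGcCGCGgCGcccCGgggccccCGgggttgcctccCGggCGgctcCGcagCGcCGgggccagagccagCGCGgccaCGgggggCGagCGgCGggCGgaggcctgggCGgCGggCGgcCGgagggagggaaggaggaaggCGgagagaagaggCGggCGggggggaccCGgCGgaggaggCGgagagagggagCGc
Dnmt3b chr2:153649199-153649410: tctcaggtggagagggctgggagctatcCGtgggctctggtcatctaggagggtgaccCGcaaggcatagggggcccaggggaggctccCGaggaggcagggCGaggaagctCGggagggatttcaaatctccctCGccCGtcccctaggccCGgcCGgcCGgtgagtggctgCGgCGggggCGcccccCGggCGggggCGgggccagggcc
Dnmt3l chr10:78049592-78049841: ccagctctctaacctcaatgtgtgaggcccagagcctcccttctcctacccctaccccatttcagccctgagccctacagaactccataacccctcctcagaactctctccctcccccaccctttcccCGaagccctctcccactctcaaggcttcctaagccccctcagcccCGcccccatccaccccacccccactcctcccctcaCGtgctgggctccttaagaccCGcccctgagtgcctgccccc
Dnmt3l chr10:78055085-78055334: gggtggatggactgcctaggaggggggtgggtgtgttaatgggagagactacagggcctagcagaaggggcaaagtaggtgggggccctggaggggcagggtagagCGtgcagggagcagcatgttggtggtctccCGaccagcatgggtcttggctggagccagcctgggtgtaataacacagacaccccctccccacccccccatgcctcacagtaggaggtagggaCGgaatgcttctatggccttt

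The printed *Dnmt3a* window had 38 CG in 250 bases, more than 98.1% of 32851 RefSeq windows of this length from 27025 genes, whose median is 6 CG. An overlapping *Dnmt3a* window, not printed because it overlaps an exon, had 40 CG. The complete 250-base window of *Dnmt3b* had 21 CG, and 83.7% of windows had fewer. The printed *Dnmt3l* windows had 4 and 3 CG, and 37.8% and 29.0% of windows had fewer. The window before the *Dnmt3l* gene start, which overlaps exons, had 5 CG, and 44.4% of windows had fewer. A gene's starts can differ in this: a further *Dnmt3a* start, after chr12:3891494-3891743, had 15 CG in its window (72.7% of windows had fewer) and an E-box. The counts are per gene, so they do not tell from which start the RNA came. The GC box GGGCGG, searched on both strands, was in the printed windows of *Dnmt3a* and *Dnmt3b* and in the first of the *Dnmt3l* windows shown, and in 32.7% of all windows. The E-box CACGTG, which reads the same on both strands, was in that *Dnmt3l* window and in 6.02% of all windows. The Prdm14 consensus GGTCTCTAA was in none of the 16 windows of the 9 genes with an entry and in 0.240% of all windows. A match is a match of letters in these windows, and its absence says nothing about binding elsewhere.

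*Dnmt3a* showed the largest difference of the 10 genes. It had 167 CPM in wild type and 78.3, 63.3 and 62.4 CPM in clones 3C, 3D and 3M, from 3179, 1055, 921 and 966 counts. Every clone was far below wild type, and clone 3C (counting interval 73.6 to 83.1 CPM) was above clones 3D (59.3 to 67.5 CPM) and 3M (58.5 to 66.4 CPM), with a mean of 68.0 ± 8.92 CPM (SD, n = 3) or 40.8% of the wild-type level. The spread between the clones, 0.33 on the log2 scale, was larger than that of 61.2% of the genes tested. The log2 fold change, rescue minus wild type, was -1.30 (SE 0.13), which is 2.45-fold lower. In edgeR's quasi-likelihood test, *Dnmt3a* ranked 12 of 13267 genes by p, with an unadjusted p of 1.0e-04 and a Benjamini-Hochberg adjusted p of 0.11, so it did not pass the adjusted p of 0.01. DESeq2's Wald test called it among 65 genes, with a log2 fold change of -1.30 and an adjusted p of 1.30e-09. Without clone 3D, edgeR called it among 420 of 13243 genes, at -1.25 and an adjusted p of 4.7e-05. Over 12 alternatives its adjusted p ran from 1.30e-09 to 0.55. With 1 wild-type library, edgeR and DESeq2 take the spread from the clones alone and assume that wild type varies as they do. Fewer cells that express a gene and less RNA per cell cannot be told apart in these bulk libraries.

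*Dnmt3l*, the cofactor of the de novo enzymes, was lower by a similar amount on average but varied most between the clones. It had 331 CPM in wild type and 235, 95.5 and 161 CPM in clones 3C, 3D and 3M. Clone 3C kept 70.9% of the wild-type level, clone 3M 48.5% and clone 3D 28.9%, so that clones 3C and 3D differed from each other by 2.46-fold. The counting error, as a 95% exact Poisson interval, ran from 227 to 243 CPM in clone 3C, from 154 to 167 in clone 3M and from 90.6 to 101 in clone 3D, and these do not overlap. The spread between the clones, 1.30 on the log2 scale from lowest to highest, was larger than that of 95.7% of the genes tested. The log2 fold change was -1.02 (SE 0.41), with an unadjusted p of 0.052 and an adjusted p of 0.49 in edgeR. Without clone 3D it was -0.75 and passed, with an adjusted p of 0.0066 in edgeR. In that fit 420 of 13243 genes passed, against 1 of 13267 with all 3 clones, so the pass was not particular to *Dnmt3l*. Over the 12 alternatives the adjusted p of *Dnmt3l* ran from 0.0066 to 0.9999, and clone 3D was the library whose removal changed the call.

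*Dnmt3b*, the de novo enzyme with the highest RNA level per length, was the least lowered of the 3. It had 232 CPM in wild type and 196, 139.9 and 180.3 CPM in clones 3C, 3D and 3M. Every clone was below wild type, clone 3D the most, at 84.3%, 60.2% and 77.7% of its level. The log2 fold change was -0.43 (SE 0.18), with an unadjusted p of 0.052 and an adjusted p of 0.49 in edgeR, so it did not pass. Of the 50-base words in its longest transcript, 11.5% also occur in transcripts of its duplicate *Dnmt3c*, so read pairs from that part may be uncounted or misplaced. *Dnmt3c* is not among the genes of the tables.

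*Prdm14* was above wild type in every clone, and it stood highest in clone 3D, the clone with the least *Dnmt3b* and *Dnmt3l*. It had 17.5 CPM in wild type and 19.7, 31.9 and 26.1 CPM in clones 3C, 3D and 3M, from 333, 266, 464 and 405 counts. The counting intervals of wild type (15.6 to 19.4 CPM) and clone 3C (17.4 to 22.3 CPM) overlap, so the difference of clone 3C from wild type was within counting error, and those of clone 3D (29.1 to 34.9 CPM) and clone 3M (23.7 to 28.8 CPM) lie above wild type. The mean of 25.9 ± 6.08 CPM (SD, n = 3) was 148% of wild type, with a log2 fold change of 0.57 (SE 0.27), an unadjusted p of 0.077 and an adjusted p of 0.53 in edgeR. It did not pass. The order of the libraries, wild type, clone 3C, clone 3M and clone 3D, was rising for *Prdm14* and falling for *Dnmt3b* and *Dnmt3l*. This order was noticed after the values were seen. The falling order was found in 4.96% and the rising order in 4.45% of the 13267 genes tested, and no correlation was computed over 4 libraries. *Dnmt3a* did not follow the falling order, with 63.3 CPM in clone 3D and 62.4 CPM in clone 3M, whose counting intervals overlap. In clone 3C, where *Prdm14* was within counting error of wild type, *Dnmt3a* had 78.3 CPM against 167 CPM in wild type. Whether *Prdm14* has a part in the de novo values was not tested.

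**Figure D1:**
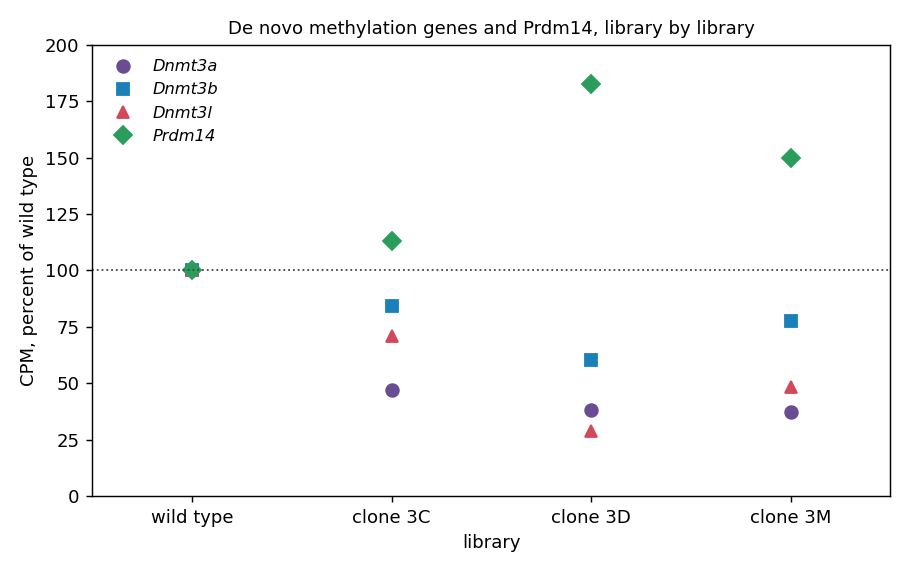
CPM of the de novo genes and *Prdm14* in each library, as a percentage of the wild-type library (y axis), with the 4 libraries on the x axis. Each point is 1 library. *Dnmt3a* sits between 37.4% and 46.9% in the clones, *Dnmt3l* is spread from 28.9% to 70.9%, and *Prdm14* is above 100% in every clone.

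The maintenance genes differed little from wild type and did not pass the test. *Dnmt1* had 470.1 CPM in wild type and 515, 503 and 534 CPM in clones 3C, 3D and 3M. Its clones agreed closely, with a coefficient of variation of 3.10%, and its log2 fold change was 0.14 (SE 0.06), with an adjusted p of 0.53 in edgeR. *Uhrf1* had 510.2 CPM in wild type and 563, 513 and 564 CPM in clones 3C, 3D and 3M, and the counting intervals of clone 3D (502 to 525 CPM) and wild type (500.1 to 520.4 CPM) overlap. Its log2 fold change was 0.10 (SE 0.08), with an adjusted p of 0.69 in edgeR. Of the 50-base words of *Uhrf1*, 18.9% are shared with other transcripts, nearly all with *Gm5648*.

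The Tet genes held no common direction. *Tet1*, the most counted of the 10 genes, had 1434 CPM in wild type and 1314, 1444 and 1286 CPM in clones 3C, 3D and 3M, so that wild type lay within the range of the clones. Its log2 fold change was -0.09 (SE 0.08), with an adjusted p of 0.73 in edgeR. *Tet2* had 467 CPM in wild type and 523, 590.5 and 499 CPM in the same clones, all above wild type, with a log2 fold change of 0.20 (SE 0.10) and an adjusted p of 0.56 in edgeR. *Tet3*, the least expressed of the Tet genes, had 32.1 CPM in wild type and 35.8, 25.2 and 29.7 CPM in the same clones, on both sides of wild type. Its log2 fold change was -0.09 (SE 0.19), with an adjusted p of 0.90 in edgeR, and the log2 fold change was 0.023 without clone 3D.

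*Tdg*, which excises oxidised methylcytosine, had 3 counts in wild type and 1, 4 and 2 counts in clones 3C, 3D and 3M, and the column of the opposite strand held at most 1 count. Of the 3453 words of 50 bases in its longest transcript, 2290 (66.3%) also occur in transcripts of other genes, 47.4% in its pseudogene *Tdg-ps*, and the deposited counts hold uniquely mapped read pairs. The level of *Tdg* RNA is not known from these counts, and no fold change is given. The gene annotation behind the counts is not given in the sources used, and what made these counts so low was not tested.

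**Figure D2:**
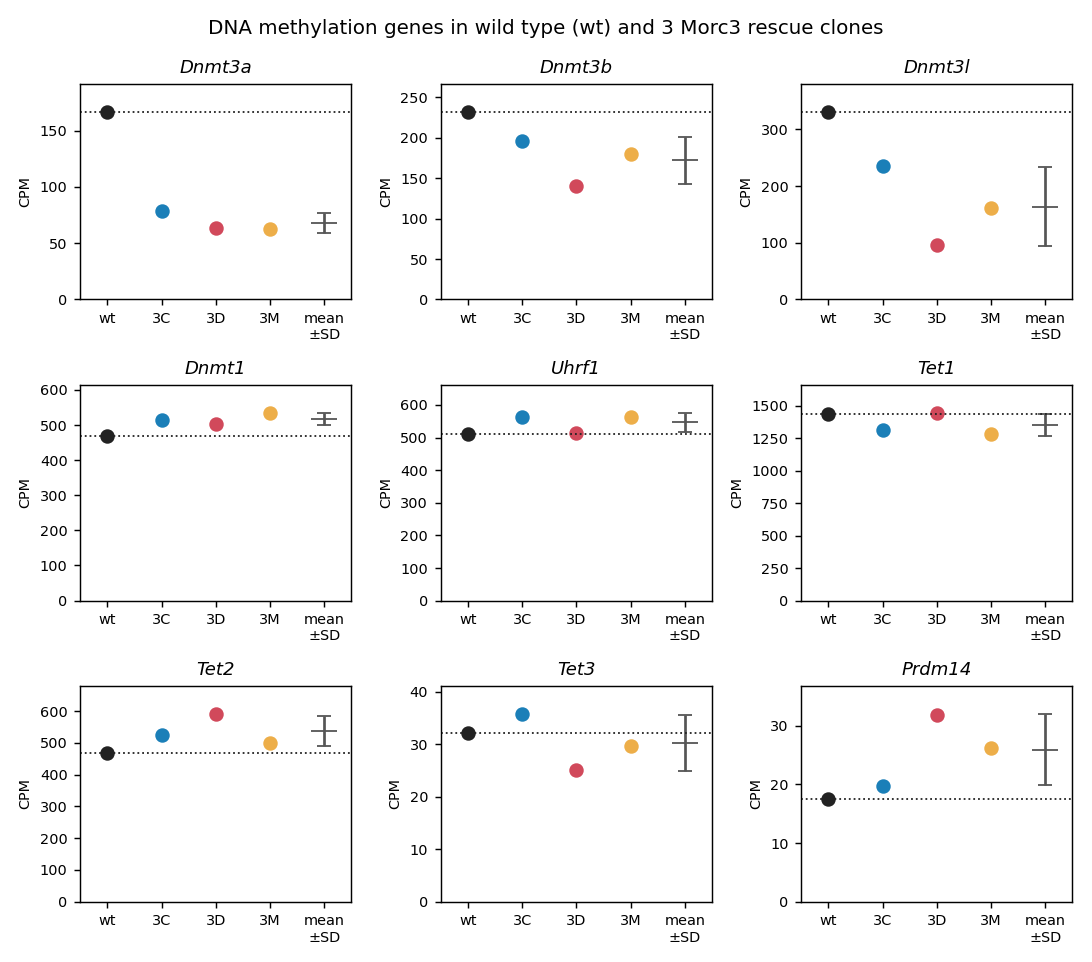
CPM of the 9 genes tested, with 1 panel a gene and a y axis from 0. Points are the wild-type library (wt) and clones 3C, 3D and 3M, the dotted line is the wild-type level, and the bar is the mean ± SD of the 3 clones. All 3 points of *Dnmt3a*, *Dnmt3b* and *Dnmt3l* lie below the line, and wild type lies within the clones for *Tet1* and *Tet3*.

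Counted together, 0 of the 9 genes passed the adjusted p of 0.01 in edgeR, beside 0.00754% of all genes tested, which is the Y-linked gene *Ddx3y* alone (48.3 CPM in wild type, 0.37, 0 and 0.065 CPM in clones 3C, 3D and 3M). limma-voom and edgeR's legacy method also called 0 of the 9, and 0 of all genes tested. DESeq2 called 1 of the 9, *Dnmt3a*, beside 65 of the 13267 genes tested. It gave no adjusted p for 3858 genes. At an unadjusted p under 0.05, 1 of 9 passed in edgeR (*Dnmt3a*), beside 10.3% of all genes tested, so this share is near the background. All 3 clones were below wild type for 3 of 9 genes, beside 28.4%, and above it for 4 of 9, beside 28.7%. These counts are not far from the background either. The difference was -1 or lower on the log2 scale for 2 of 9, *Dnmt3a* and *Dnmt3l*, beside 1.38% of all genes tested, and for *Dnmt3a* alone without clone 3D, where *Dnmt3l* was at -0.75. The genes were chosen with earlier results of these data known, so these shares describe them and do not test the set. The median log2 fold change of the 9 genes was -0.09, and that of all genes tested was 0.01.

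**Figure D3:**
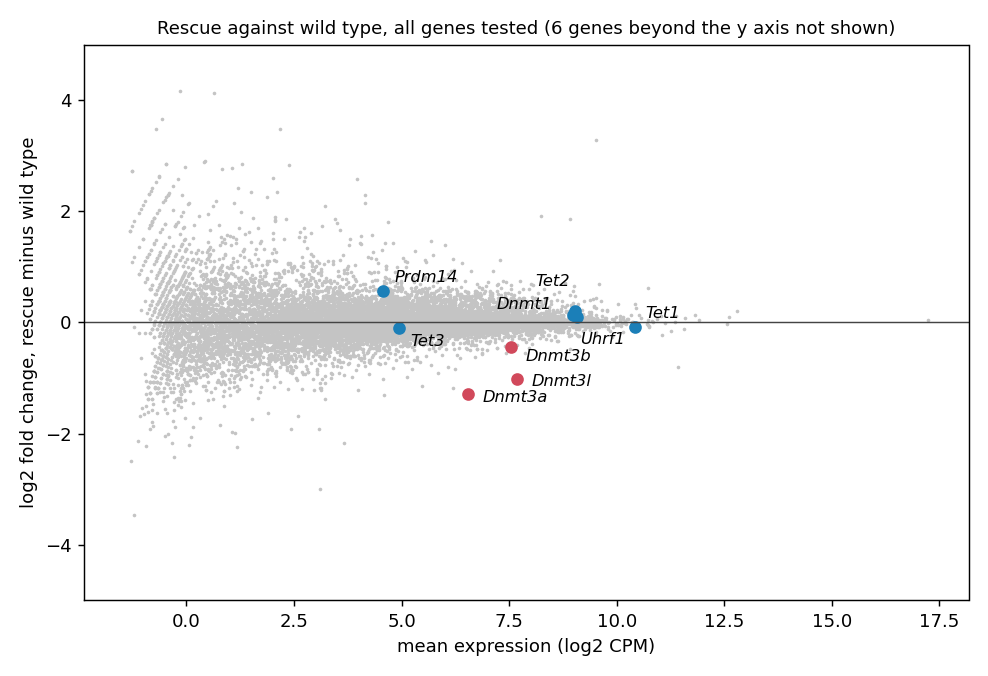
Log2 fold change, rescue minus wild type (y axis), against mean expression in log2 CPM (x axis) for the genes tested in edgeR, as grey points, with 6 genes beyond the y axis not shown. The de novo genes are red and the other 6 genes tested are blue. *Dnmt3a* at -1.30 and *Dnmt3l* at -1.02 lie below the grey band of genes with similar expression.

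Levels were compared between the genes per length, as TPM, in which each gene's counts are divided by its merged exon length and brought to the same total in every library. In wild type, *Uhrf1* was highest at 486 TPM, followed by *Dnmt3l* at 449, *Tet1* at 376, *Dnmt1* at 259, *Dnmt3b* at 184 and *Tet2* at 112 TPM. *Dnmt3a* at 40.6, *Prdm14* at 27.6 and *Tet3* at 7.81 TPM followed, and *Tdg* was listed at 0.12 TPM. In the clones, *Uhrf1* was at 516 ± 31.1 TPM (SD, n = 3), *Tet1* at 351 ± 19.3 and *Dnmt1* at 282 ± 10.7. *Dnmt3l*, second in wild type, was at 221 ± 94.8 TPM, and its spread overlaps its neighbours *Dnmt1* and *Dnmt3b* (136 ± 23.6 TPM). *Dnmt3b* and *Tet2* (128 ± 10.3 TPM) do not differ beyond their spread on these lengths. On these merged lengths, *Prdm14*, at 40.6 ± 9.29 TPM, was above *Dnmt3a*, at 16.4 ± 2.20 TPM, in every clone. In wild type *Dnmt3a* was the higher of the pair. *Tet3* was the lowest tested gene, at 7.28 ± 1.32 TPM. The order depends on the length used: with the longest transcript, the clone means were 476 TPM for *Uhrf1*, 293 for *Tet1*, 281 for *Dnmt3l*, 275 for *Dnmt1*, 183 for *Tet2* and 124 for *Dnmt3b*. *Tet1*, *Dnmt3l* and *Dnmt1* then lie close together and *Tet2* lies above *Dnmt3b*. The clone means of *Prdm14* and *Dnmt3a* were then 31.6 and 21.9 TPM. In clone 3C *Prdm14* no longer lay above *Dnmt3a* on that length.

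Summed by role, the 3 de novo genes had 674 TPM in wild type and 490.5, 252 and 376 TPM in clones 3C, 3D and 3M, a mean of 55.2% of wild type. Most of this sum is *Dnmt3l*, and clone 3D is the lowest. The Tet genes summed to 497 TPM in wild type and 477, 518 and 463 TPM in the clones (mean 97.9%), and *Dnmt1* with *Uhrf1* to 745 TPM in wild type and 815, 752 and 828 TPM in the clones (mean 107%). The ratio of *Tet1* to *Dnmt3a* in TPM was 9.26 for wild type, against 18.1 for clone 3C, 24.6 for clone 3D and 22.2 for clone 3M. Every clone thus had a higher ratio of *Tet1* to *Dnmt3a* RNA than wild type. This restates the lower *Dnmt3a* beside a *Tet1* that differed little, and it is not a separate result.

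The genes that work with these enzymes were read from the same test, by lists drawn from textbook knowledge. In edgeR 0 genes of any list passed the adjusted p of 0.01. DESeq2 called 1, a neural marker, beside 65 of the 13267 genes tested. Counts are therefore given at an unadjusted p under 0.05, which 10.3% of all genes tested passed in either direction. Of the 9 partners of maintenance, 0 were higher and 3 lower, beside the 10.3% of all genes tested, with a median log2 fold change of -0.03. *Cdca7l* and *Cdca7*, relatives of which Cdca7 activates the remodeller Hells, were lower in every clone, *Cdca7l* at 37.5 CPM in wild type against 28.7, 30.7 and 32.5 CPM in clones 3C, 3D and 3M, and *Cdca7* at 177 CPM and 157, 159.8 and 154. *Uhrf2*, the relative of *Uhrf1*, had 66.1 CPM in wild type and 57.9, 57.9 and 56.7 CPM in the clones. The adjusted p of these was between 0.46 and 0.48 in edgeR, and the log2 fold changes were -0.29, -0.17 and -0.20, in that order.

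Of 7 tested genes listed under de novo targeting (*Setd2*, *Nsd1*, *Nsd2*, *Kdm1a*, *Kdm1b*, *Zfp57* and *Trim28*), 1 was higher and 0 lower, with a median of 0.04. The higher gene was *Kdm1b*, a histone H3 demethylase needed for imprints in oocytes, at 18.6 CPM in wild type and 30.1, 22.6 and 30.3 CPM in clones 3C, 3D and 3M (log2 fold change 0.57, SE 0.20, adjusted p 0.44 in edgeR). *Kdm1b* and *Nsd1* are on chromosome 13, whose median was higher in clones 3C and 3M, and the part of the chromosome in their values was not tested. *Nsd1* had 645 CPM in wild type and 929.6, 616 and 993 CPM in the clones, and 0.39 as log2 fold change (SE 0.26, adjusted p 0.64 in edgeR). *Nsd1* was named after its values were seen.

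Of 8 readers of methylated CG, 1 was higher and 0 lower, with a median of 0.01. This was *Mbd2*, which links methylated DNA to the NuRD complex, at 7.34 CPM in wild type and 13.9, 11.7 and 13.5 CPM in the clones (log2 fold change 0.83, SE 0.18, adjusted p 0.25 in edgeR). Of 13 genes of base excision repair and its regulation, the pathway in which Tdg acts, 1 was higher and 0 lower, with a median of -0.07. This was the endonuclease gene *Apex1*, at 214 CPM in wild type and 288, 289 and 271 CPM in the clones (log2 fold change 0.40, SE 0.07, adjusted p 0.19 in edgeR). *Apex1* is on chromosome 14, whose median was 0.34 or 0.35 in each clone, and the part of the chromosome in its value was not tested. Of 13 genes that supply the methyl donor or the Tet cofactor, 0 were higher and 1 lower, with a median of 0.06. This was *Shmt1*, of folate metabolism, at 194 CPM in wild type and 169.7, 169 and 165 CPM in the clones (log2 fold change -0.21, SE 0.06, adjusted p 0.40 in edgeR).

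Of 6 partners and repressed genes of Prdm14, 0 passed in either direction, with a median of -0.03. The repressed gene *Fgfr1* had 112 CPM in wild type and 114, 69.9 and 95.5 CPM in clones 3C, 3D and 3M (log2 fold change -0.26, SE 0.24, adjusted p 0.74 in edgeR). The other repressed gene of the list, *Fgfr2*, named after its values were seen, had 5.30 CPM in wild type and 3.93, 3.64 and 10.1 CPM in the same clones (0.18, SE 0.60, adjusted p 0.94 in edgeR). Of 14 germline genes known to be silenced by DNA methylation, 8 were tested, 0 were higher and 1 lower, and the median was 0.28. The median differed between the clones, at 0.02, -0.31 and 0.64 in clones 3C, 3D and 3M, and several of these genes had few counts. The list's median was -0.0088 with limma-voom, 0.097 without clone 3M and 0.55 without clone 3D. The lower gene was *Mov10l1*, of the piRNA pathway, at 7.03 CPM in wild type and 3.34, 4.26 and 5.16 CPM in the clones (log2 fold change -0.71, SE 0.26, adjusted p 0.45 in edgeR). All 3 clones were below wild type for 2 of the 8, *Mov10l1* and *Sycp3*, beside 28.4% of all genes tested. They were above it for 2, *Ddx4* and *Tex19.1*, beside 28.7%. *Ddx4* is on chromosome 13, and the part of the chromosome in its value was not tested. The other 6 germline genes were too low to test.

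Markers of cell states were read beside the de novo genes, since these genes are known to differ between naive and primed pluripotent cells. Of 10 ES cell markers, 2 were higher and 1 lower at an unadjusted p under 0.05, beside 10.3% of all genes tested, with a median of 0.02. *Nanog*, a core pluripotency factor, had 299.7 CPM in wild type and 468, 358 and 481 CPM in clones 3C, 3D and 3M (log2 fold change 0.54, SE 0.17, adjusted p 0.40 in edgeR). *Fgf4* had 168 CPM in wild type and 191, 201 and 198 CPM in the clones (0.23, SE 0.07, adjusted p 0.37 in edgeR), and *Lin28a* had 349.8 CPM and 286, 291 and 315 CPM (-0.24, SE 0.08, adjusted p 0.41 in edgeR). The 3 primed epiblast markers did not move together. *Pou3f1* had 10.0 CPM in wild type and 6.68, 7.01 and 6.07 CPM in the clones (log2 fold change -0.61, SE 0.18, adjusted p 0.36 in edgeR). *Otx2*, named after its values were seen, had 6.50 CPM in wild type and 1.71, 14.7 and 4.13 CPM in clones 3C, 3D and 3M (0.08, SE 0.95). It was thus above wild type in clone 3D alone. *Fgf5* had 3 counts, in clone 3M alone. The summed level of the 3 primed epiblast markers was 16.5 CPM in wild type and 8.38, 21.7 and 10.4 CPM in clones 3C, 3D and 3M.

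Markers of differentiated cells were low. The neural markers summed to 76.9 CPM in wild type and between 43.8 and 52.3 CPM in the clones, with *Neurog2* at 0 counts throughout, and nearly all of this was *Tubb3*, a neuronal tubulin, at 73.8 CPM in wild type and 49.3, 40.8 and 40.5 CPM in clones 3C, 3D and 3M (log2 fold change -0.76, SE 0.13, adjusted p 0.19 in edgeR). *Tubb3* was below wild type in every clone. The remaining neural markers, named after their values were seen, did not follow it. *Sox1* had 3.04 CPM in wild type and 2.74, 4.95 and 2.78 CPM in clones 3C, 3D and 3M (0.20, SE 0.41). *Pax6* had 0 counts in wild type and 4, 2 and 8 counts in these clones. The part of the cell state in the de novo values was not tested. The endoderm markers summed to 6.13 CPM in wild type and between 5.22 and 9.94 CPM in the clones, led by *Sox7* with a log2 fold change of 0.82 (SE 0.45, adjusted p 0.58 in edgeR). The others, named after their values were seen, did not follow it. *Gata4* had 2.73 CPM in wild type and 4.15, 1.44 and 2.78 CPM in clones 3C, 3D and 3M (0.02, SE 0.52). *Gata6* had 9 counts in wild type and 1, 3 and 5 counts in these clones, and *Foxa2* had 1 count and 5, 3 and 1. *Sox17* and *Afp* had few counts or none. The mesoderm markers summed to 5.09 CPM in wild type and between 3.63 and 9.35 CPM in the clones, with *Eomes* at 2.67 CPM in wild type and 2.0, 7.83 and 3.94 CPM in clones 3C, 3D and 3M (log2 fold change 0.79, SE 0.71, adjusted p 0.73 in edgeR). The other tested mesoderm marker, *Mixl1*, named after its values were seen, had 1.99 CPM in wild type and 1.48, 1.31 and 1.42 CPM in the same clones (-0.50, SE 0.32, adjusted p 0.62 in edgeR), and *T* had 5 counts in wild type and 1 count in each clone. Among the fibroblast markers, *Thy1* had the larger of the tested differences, -0.17 on the log2 scale (SE 0.44, adjusted p 0.92 in edgeR). Of the 2-cell-like markers, *Zscan4c* and *Zscan4f* had no count and *Zscan4d* had 2 counts, in clone 3C alone. The deposited counts hold uniquely mapped read pairs, and sequence shared between the *Zscan4* genes was not examined. Their RNA level is therefore not known from these counts.

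**Figure D4:**
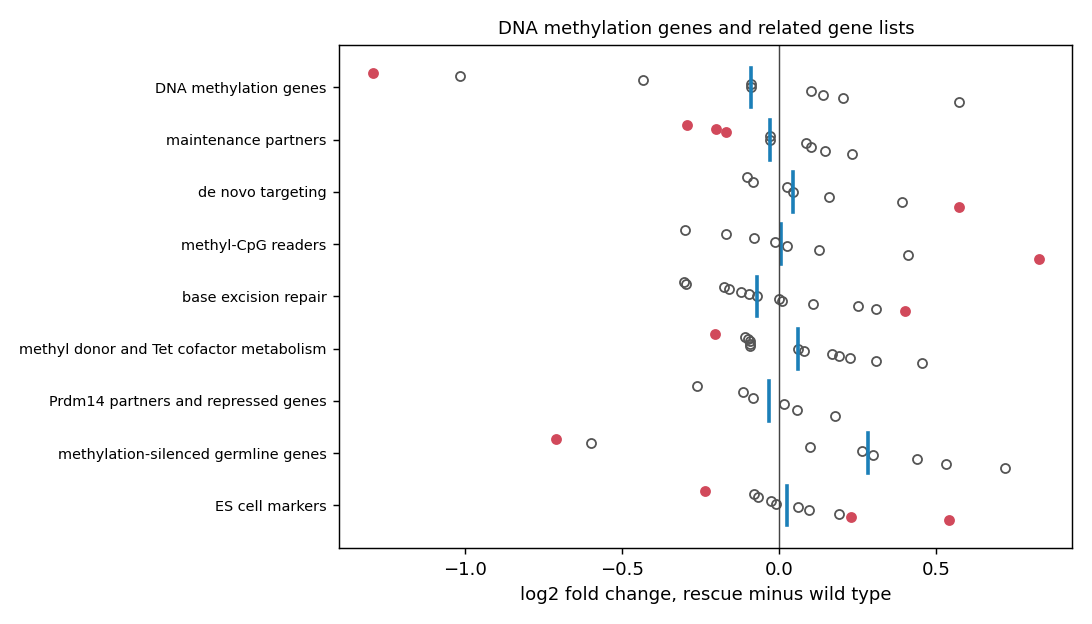
Log2 fold change, rescue minus wild type (x axis), of each tested gene of the 9 DNA methylation genes and 8 related lists (y axis). Filled red points had an unadjusted p under 0.05 in edgeR, open points did not, and the blue line is the list's median. The medians lie between -0.09 and 0.28, and *Dnmt3a* at -1.30 is the point farthest from 0.

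The genes most like *Dnmt3a* across the 4 libraries, by the Euclidean distance between centred log2 CPM values, were *Mt3* (distance 0.14), *Fhod3* (0.17), *Ggt7* (0.18), *Entpd2* (0.22) and *Glipr2* (0.23). *Fhod3*, a formin, had 27.3 CPM in wild type and 14.8, 10.5 and 10.1 CPM in clones 3C, 3D and 3M. *Glipr2* had 14.3 CPM in wild type and 6.82, 6.60 and 5.49 CPM in the same clones. *Mt3*, a metallothionein, had 5.45 CPM in wild type and 2.45, 2.13 and 1.81 CPM. *Ggt7* (0.839 CPM in wild type) and *Entpd2* (1.36 CPM in wild type) were lower still. All 5 were expressed below *Dnmt3a*, and their adjusted p in edgeR was between 0.19 and 0.40. The likeness rests on 4 libraries.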

How the data were processed

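STAR was used by the authors to map 50-base read pairs to mm10, and the deposited values are raw counts of uniquely mapped pairs for each gene, unstranded and for each strand; the STAR version and gene annotation are not given in the sources used here. RNA had been depleted of ribosomal RNA and the kit is directional, so the reverse-strand counts were used; the forward column held 1.26% to 1.31% as many. Rows that name no gene stayed out of library sizes and tests (multimapping 7.85% to 8.21%, unassigned 23.6% to 24.7% of read pairs).

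The test was that of edgeR 4.0.16 in R 4.3.3 (glmQLFit with legacy off, glmQLFTest, TMM, filterByExpr) over 13267 genes with Benjamini-Hochberg adjustment at 0.01, the rescue clones (n = 3) against wild type (n = 1). The standard error is the log2 fold change over the square root of F, and log2 differences between libraries used a prior count of 2. The common biological coefficient of variation was 11.3%. The steps were tested on simulated data. CPM was scaled by the TMM factors. TPM used merged exon lengths from GENCODE vM21, matched by symbol for 23681 of 24054 genes. RefSeq GRCm38.p6 gave positions (22542 genes by symbol, 1352 by synonym, 160 without a match) and promoter windows. Poisson intervals (95%, exact) cover counting error only.

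The genes and lists were chosen with earlier results of these data known. Named were the 10 genes, *Morc3*, up to 3 genes per list whose clones all lay on the same side of wild type at an unadjusted p under 0.05 (or, failing that, the gene with the largest change), and the 5 genes nearest to *Dnmt3a*. As alternatives, the fit was repeated on the unstranded column, with size factors from DESeq2, with TMM computed without chromosomes 13 and 14 or without genes above 1% of counts, without a filter, with a minimum of 10 counts in every library, with DESeq2 1.42.0, limma-voom (limma 3.58.1) and the legacy method of edgeR, at 0.05, leaving out each clone and, for TPM, the longest transcript or no Rn45s (a gene without a length, so that TPM was the same). The replicates are separate clones, so p-values measure the spread between clones of 1 ko line.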

Additional observations from a re-analysis of the deposited data

How the results depend on the processing

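Over the alternatives, each gene kept its direction except *Tet3*, which ranged from -0.23 without clone 3C to 0.023 without clone 3D. *Dnmt3a* ranged from -1.41 to -1.24, *Dnmt3l* from -1.37 to -0.75, *Dnmt3b* from -0.54 to -0.31 and *Prdm14* from 0.40 to 0.73 on the log2 scale, and *Dnmt3b* and *Prdm14* never passed an adjusted p of 0.01 (lowest 0.033 and 0.23). The number of genes called, 1 with edgeR, was 0 with 10 counts in every library, with limma-voom and with edgeR's legacy method, and 65 with DESeq2 (53 higher). Leaving out 1 clone gave between 0 and 420 genes, 420 (332 higher) without clone 3D and 0 without clone 3M. This count thus depends on which clones are kept as well as on the method. Of the 9 genes, 1 was called with DESeq2 (*Dnmt3a*, -1.30) and between 0 and 2 without 1 clone, the 2 being *Dnmt3a* at -1.25 and *Dnmt3l* at -0.75 without clone 3D. Of the lists, the neural markers had 1 gene called with DESeq2, and without clone 3D the calls were 2 for de novo targeting and 1 each for base excision repair, methyl donor and Tet cofactor metabolism, ES cell markers and neural markers. The cause of the larger counts without clone 3D was not tested. With the longest transcript, the clone means were 21.9 TPM for *Dnmt3a*, 476 for *Uhrf1*, 293 for *Tet1*, 183 for *Tet2* and 8.66 for *Tet3*, since the length is the divisor, and *Dnmt3l* (281) then stood above *Dnmt1* (275). No scaling moved the median of all genes beyond 0.02 on the log2 scale. No paired analysis was possible because wild type is 1 library and shares no pairing with the clones. The depth of *Prdm14* (266 to 464 counts) and *Tdg* (1 to 4 counts) limits what can be said of them.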
